A study of Mus musculus with 8 samples.

Results

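The genes described here are 10 feedback inhibitors and early targets of cytokine signalling through the transcription factor STAT3: Socs3, Socs1, Socs2, Cish, Bcl3, Pim1, Junb, Myc, Batf and Pias3. They were taken by name from the 53342 Ensembl genes of the deposited tables, and all 10 were found there. The messenger RNA came from heart macrophages of C57BL/6 mice that were wild type and 8 weeks old, taken 3 days after infarction. The sort gave a Ly6Clo subset, with little of the surface antigen Ly6C, and a Ly6Chi subset, with much of it. Each subset was cultured for 24 hours with 100 ng/mL of interleukin 21 (IL-21) or without it. These libraries hold no earlier time, so a change that had passed by then would not be seen. The 4 groups, Ly6Clo with IL-21, Ly6Clo without IL-21, Ly6Chi with IL-21 and Ly6Chi without IL-21, had 2 libraries each, numbered 1 and 2 in the labels. Nothing in the labels says whether these came from separate mice or cultures, so p values measure only the spread between these libraries, which may be technical. Macrophages lacking the IL-21 receptor, named in the series' design, are not analysed here.

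IL-21 is a cytokine of activated T cells that binds a receptor made of a specific chain and the shared gamma chain, and signals through the kinases JAK1 and JAK3, chiefly to STAT3. Phosphorylated STAT3 enters the nucleus and binds short palindromic sites in its target genes, among them Socs3. The SOCS proteins then bind receptors or JAKs through an SH2 domain and limit further signalling. PIAS3 inhibits STAT3 at the protein level. BCL3, PIM1, JUNB, MYC and BATF are products of genes that STAT3 is known to switch on early in lymphocytes or hepatocytes: a co-regulator of NF-kappaB, a survival kinase, and 3 transcription factors.

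To show what a STAT site looks like in these genes, promoter windows of 300 bases (250 before and 50 after the transcription start, RefSeq, GRCm38.p6) were searched for TTCNNNGAA, which reads the same on both strands. RefSeq windows were at hand for 8 of the 10 genes, in 10 windows. Of these genes 2 had the motif, Socs3 with 1 copy and Cish with 2, while of the 32851 mouse windows searched, 8.3% had at least 1 copy and 0.457% had 2 or more. The Bcl3 window, shown for contrast, has none, nor do those of Socs1, Pim1, Junb, Batf and Pias3. Lack of a match says only that these letters are not in that window. Capitals mark the motif, and each sequence runs 5′ to 3′ along the gene. The Socs3 window is chr11:117969317-117969616 on the minus strand, that of Cish chr9:107296409-107296708 on the plus strand and that of Bcl3 chr7:19822706-19823005 on the minus strand.
Socs3: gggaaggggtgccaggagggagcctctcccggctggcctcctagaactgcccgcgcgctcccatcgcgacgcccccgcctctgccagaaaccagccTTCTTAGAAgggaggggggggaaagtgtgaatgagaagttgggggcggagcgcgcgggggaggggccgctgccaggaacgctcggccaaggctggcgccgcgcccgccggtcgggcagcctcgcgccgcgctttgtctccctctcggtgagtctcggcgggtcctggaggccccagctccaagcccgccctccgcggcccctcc
Cish: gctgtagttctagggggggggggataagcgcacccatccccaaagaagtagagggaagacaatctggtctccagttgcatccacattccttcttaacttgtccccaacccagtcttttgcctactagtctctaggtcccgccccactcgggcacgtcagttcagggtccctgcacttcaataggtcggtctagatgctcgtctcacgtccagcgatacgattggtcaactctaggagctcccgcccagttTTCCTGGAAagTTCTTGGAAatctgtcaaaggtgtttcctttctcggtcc
Bcl3: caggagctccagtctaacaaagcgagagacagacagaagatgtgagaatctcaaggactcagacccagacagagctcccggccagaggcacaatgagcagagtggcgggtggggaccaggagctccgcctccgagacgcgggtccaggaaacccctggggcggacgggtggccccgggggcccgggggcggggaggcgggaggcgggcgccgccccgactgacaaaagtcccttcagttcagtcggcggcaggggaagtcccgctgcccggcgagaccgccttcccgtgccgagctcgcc
In Socs3 the copy begins 154 bases before the RefSeq start. In Cish the copies are at window bases 251 to 259 and 262 to 270, the first of them beginning at the RefSeq start itself. Both windows lie inside the gene bounds of GENCODE M21 (Socs3 117966079 to 117970047, Cish 107296026 to 107302784), so these positions hold for the RefSeq start only. The levels of both genes are given below with their roles.

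Depth decided how much could be read from each gene. Totals of the deposited estimated counts were 224329 to 483593 per library, so that 3 counts, the smallest number treated here as a level, correspond to 6.58 to 14.9 CPM, the depth-normalised count used throughout, on library sizes scaled by TMM over the genes tested. The libraries read the 3′ ends of transcripts. Levels are compared between libraries, and between genes only as parts of a list's sum. Macrophage markers were strong, with at least 10 counts in total over the 8 libraries for 7 of 8 listed genes and a summed level of 6807 to 10576 CPM with IL-21 and 6952 to 11537 CPM without, although Itgam was at 0 in all 8 libraries. Ly6c2 was at 35.6 ± 33.3 CPM in Ly6Clo with IL-21 and 60.1 ± 20.5 CPM in Ly6Clo without it, against 438 ± 93.4 and 479 ± 94.3 CPM in Ly6Chi with and without IL-21 (SD, n = 2 each). Of 9 T cell markers, Cd3g and Cd8a were at 0 in every library, and Il7r carried the list at 561 to 915 CPM. Of 9 neutrophil markers, Ly6g, Ngp and Retnlg were at 0 in every library, but the list summed to 828 to 2338 CPM with IL-21 and 641 to 2140 CPM without, most of it Mmp8 (538 to 2154 CPM). Of the 10 genes, 4 passed the filter on low counts and were tested among 5256 genes (Socs3, Bcl3, Junb and Pim1), and 6 did not. Socs3 reached 10 counts in 6 of the 8 libraries and fell short in both Ly6Clo libraries without IL-21, so its passing rests on the other groups, while the other 3 tested genes had at least 16 counts throughout.

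Socs3 (ENSMUSG00000053113, GRCm38 chromosome 11, 117966079 to 117970047, minus strand), the main feedback inhibitor of STAT3-activating receptors, rose with IL-21. In Ly6Clo its level was 160 and 123 CPM in the libraries with IL-21 (numbers 1 and 2), against 8.3 and 15.4 CPM in those without. The 8.3 CPM stands for 2 counts, under the 3 treated here as a level, which are 12.5 CPM in that library. In Ly6Chi it was 226 and 119 CPM with IL-21, against 41.0 and 38.1 CPM without. All 4 stimulated libraries lay above all 4 unstimulated ones, and the highest unstimulated level was well under the lowest stimulated one. Such a separation was seen for 2.19% of the genes tested. Levels of other cells' markers also differed with IL-21, without a gene of these lists passing edgeR's test for it. The 7 fibroblast markers, none at 0 throughout, summed to 116 and 136 CPM in Ly6Clo with IL-21, against 20.8 and 32.9 CPM without, and to 15.1 and 74.5 CPM in Ly6Chi with IL-21, against 69.7 and 160 CPM without. Of the 7 monocyte markers, none at 0 throughout, 6 were tested, with a median averaged log2 fold change of 0.71, and their list summed to 318 to 1265 CPM with IL-21 and 233 to 942 CPM without. With the replicate number as a block, F13a1 of that list passed (1.09, SE 0.27, edgeR adjusted p 0.0438). The part of these markers in the Socs3 values was not tested. In bulk RNA of a sorted subset, a change in the number of cells that hold a transcript and in the amount per cell cannot be told apart.

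Averaged over the subsets, Socs3 was 6.84-fold higher with IL-21, a log2 fold change of 2.77 (SE 0.31, 95% interval 2.12 to 3.43), with an edgeR quasi-likelihood adjusted p of 0.000620 over the 5256 genes. It was the 1 tested member that passed in this comparison, in which 0.171% of all genes did. An unadjusted p under 0.05 was reached by 3 of the 4 tested members by edgeR, against 5.33% of all genes. By DESeq2 it was reached by 2, against 82 of the 5256 genes. In Ly6Clo the Socs3 log2 fold change was 3.41 (SE 0.46, interval 2.42 to 4.40, edgeR adjusted p 0.00714), where 0.133% of genes passed, and both stimulated libraries lay above both unstimulated ones, as for 15% of genes. Such an unadjusted p was reached in Ly6Clo by 3 members by edgeR, against 185 of the 5256 genes, and by 1 by DESeq2, against 57. In Ly6Chi the Socs3 value was 2.14 (SE 0.40, interval 1.28 to 3.00) and did not pass (edgeR adjusted p 0.171). There edgeR called 0 of the 4 tested members, with 2 at an unadjusted p under 0.05, while 0.019% of all genes passed and 3.52% had such an unadjusted p. DESeq2 called 0 members, with 1 at such a p, while 1 of the 5256 genes passed and 44 had such a p. With the replicate number as a block Socs3 passed in Ly6Chi too (2.11, SE 0.35, edgeR adjusted p 0.00225), where 0.266% of all genes did. Under that block 1.14% of genes passed for the averaged effect and 0.552% in Ly6Clo, and Socs3 was the 1 member called in each. Libraries of the same number had log2 differences of 3.46 and 2.55 in Ly6Clo and 2.28 and 1.49 in Ly6Chi for numbers 1 and 2.

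Few counts stand behind the low side of the Socs3 change. The unstimulated Ly6Clo libraries held 2 and 7 Socs3 counts. When the second of these was left out, the Ly6Clo value was 4.01 (SE 0.73, edgeR adjusted p 0.0780) and no longer passed. Without the second stimulated Ly6Chi library the Ly6Chi value was 2.50. Besides the block, the Ly6Chi call was gained without a filter on low counts (2.12, edgeR adjusted p 0.000305), where 0.0451% of genes passed. That fit called Socs3 in Ly6Clo too, where 0.0901% of genes passed. Averaged over the subsets Socs3 was higher with IL-21 in each of the 8 fits that left out 1 library, at log2 fold changes of 2.50 to 3.07.

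**Figure D1:**
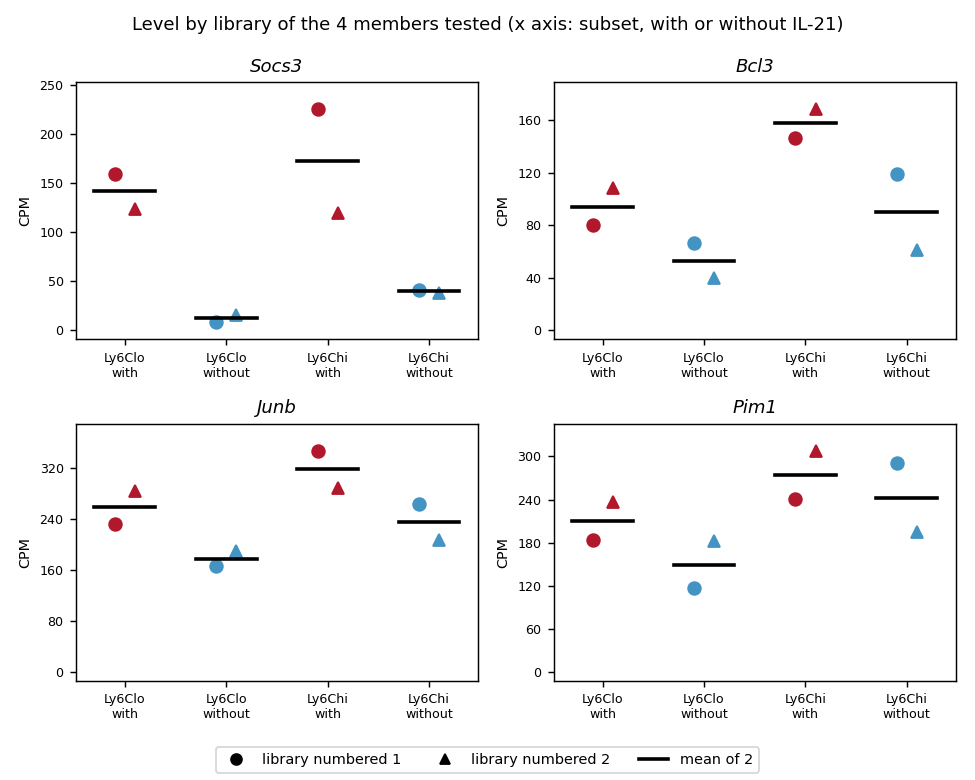
Level of Socs3, Bcl3, Junb and Pim1 in CPM (y axis) in each library of the 4 groups (x axis, with IL-21 in red and without in blue), with circles for libraries numbered 1, triangles for those numbered 2 and a bar for the mean of the 2. Socs3 libraries with IL-21 lie between 119 and 226 CPM and those without between 8.3 and 41.0 CPM, whereas the other genes overlap when the subsets are pooled. The 8.3 CPM value stands for 2 counts, under the 3 treated as a level.

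The difference between the subsets' Socs3 responses (Ly6Clo minus Ly6Chi) was 1.27 on the log2 scale (SE 0.66, interval -0.13 to 2.68) and did not pass (edgeR adjusted p 1.0). For this difference edgeR called 0 of the 4 tested members and 0% of all genes, and DESeq2 also called 0 members. By either tool 0 members had an unadjusted p under 0.05, against 1.75% of all genes by edgeR and 13 of the 5256 genes by DESeq2. Without a filter on low counts 0.00563% of genes passed for it, and again 0 members. With IL-21, Socs3 averaged 142 ± 25.9 CPM in Ly6Clo and 173 ± 75.5 CPM in Ly6Chi (SD, n = 2 each), and the log2 difference of -0.33 had an interval of -1.03 to 0.38. Without IL-21 it was at 11.8 ± 4.99 CPM in Ly6Clo, where the first library held under 3 counts, and at 39.6 ± 2.02 CPM in Ly6Chi. That log2 difference was -1.60 (SE 0.57, interval -2.81 to -0.38) with an unadjusted p of 0.0135 in edgeR's model and an edgeR adjusted p of 0.995, so it did not pass. In order of mean level the groups were Ly6Chi with IL-21, Ly6Clo with IL-21, Ly6Chi without IL-21 and Ly6Clo without IL-21, of which the first pair overlapped.

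Bcl3 (ENSMUSG00000053175, chromosome 7, 19808462 to 19822770, minus strand), an atypical IkappaB protein that binds NF-kappaB p50 and p52 in the nucleus, was higher in the stimulated libraries of each subset without passing the test. Its level in Ly6Clo was 79.9 and 108 CPM with IL-21, against 66.4 and 39.5 CPM without. The Ly6Chi values were 147 and 169 CPM with IL-21, against 119 and 61.0 CPM without. Groups did not overlap within a subset, but did when the subsets were pooled. The averaged log2 fold change was 0.87 (SE 0.27, interval 0.29 to 1.44; edgeR adjusted p 0.551). In libraries numbered 2 the log2 difference was 1.31 in Ly6Clo and 1.37 in Ly6Chi, and in those numbered 1 it was 0.24 and 0.29.

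Junb, an AP-1 transcription factor, had a smaller difference that varied little between libraries. In Ly6Clo it was at 232 and 283 CPM with IL-21, against 166 and 189 CPM without. In Ly6Chi it was at 346 and 288 CPM with IL-21, against 262 and 206 CPM without. Groups did not overlap within either subset, and the log2 difference was between 0.39 and 0.57 in each of the 4 same-numbered comparisons. The averaged log2 fold change of 0.49 (SE 0.17, interval 0.12 to 0.86) did not pass (edgeR adjusted p 0.767). The 3′ end of Junb (chromosome 8, 84974484 to 84978718, minus strand) overlaps that of Prdx2, which encodes a peroxidase, on the plus strand. Whether counting used strand is not given in the sources used here, so Junb values are uncertain. Prdx2 itself was at 128 and 217 CPM in Ly6Clo with IL-21, 145 and 171 CPM in Ly6Clo without, 169 and 119 CPM in Ly6Chi with IL-21 and 123 and 160 CPM in Ly6Chi without, with overlap in both subsets.

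Pim1 (ENSMUSG00000024014, chromosome 17, 29490753 to 29496112, plus strand), a serine/threonine kinase that favours survival, overlapped in Ly6Chi. There it was at 241 and 308 CPM with IL-21, against 291 and 194 CPM without. In Ly6Clo it was at 184 and 237 CPM with IL-21, against 116 and 182 CPM without, where the nearest values of the groups almost touched. The averaged log2 fold change was 0.32 (SE 0.21, interval -0.12 to 0.76; edgeR adjusted p 1.0), and the differences between same-numbered libraries ran from -0.27 to 0.64. Of the 4 tested genes, Socs3, Bcl3 and Junb had both stimulated libraries above both unstimulated ones in each subset, a pattern seen for 4.11% of all genes tested.

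**Figure D2:**
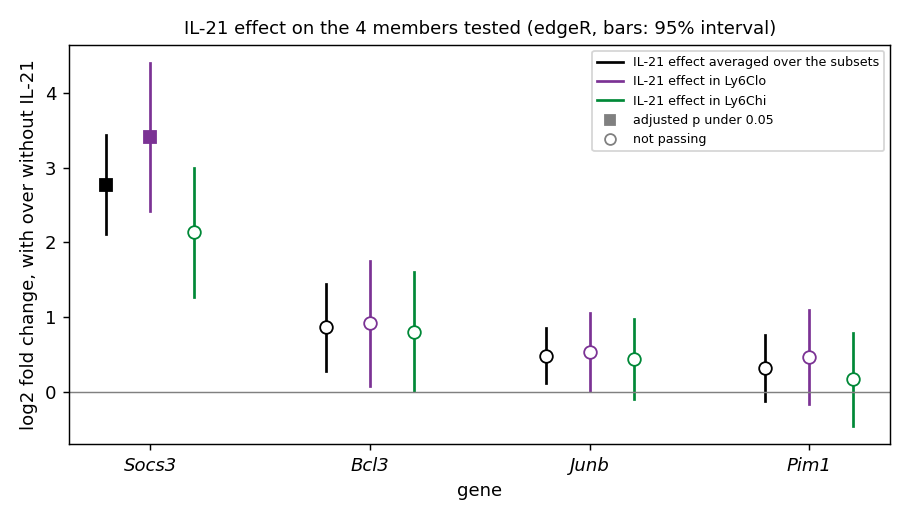
Log2 fold change with over without IL-21 (y axis) of the 4 tested members (x axis), averaged over the subsets in black, in Ly6Clo in purple and in Ly6Chi in green, with 95% intervals from edgeR as bars. Filled squares mark values with an adjusted p under 0.05, which are the averaged and the Ly6Clo value of Socs3, and the averaged Socs3 interval (2.12 to 3.43) lies above those of Bcl3 (0.29 to 1.44), Junb (0.12 to 0.86) and Pim1 (-0.12 to 0.76).

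Taken as a sum, the rest of the SOCS family was at overlapping levels with and without IL-21, which does not hold for each gene in each subset. Socs1, Socs2, Socs4, Socs5, Socs6, Socs7 and Cish together were at 196 and 232 CPM in Ly6Clo with IL-21, against 195 and 215 CPM without. In Ly6Chi they were at 200 and 174 CPM with IL-21, against 205 and 183 CPM without. Socs3 made up 44.9% (exact Clopper-Pearson 95% interval 34.4 to 55.9%) and 34.7% (27.0 to 43.1%) of SOCS-family counts in Ly6Clo with IL-21, against 4.08% (0.498 to 14.0%) and 6.67% (2.72 to 13.3%) without. In Ly6Chi the shares were 53.1% (43.5 to 62.5%) and 40.7% (28.1 to 54.3%) with IL-21, against 16.7% (8.29 to 28.5%) and 17.2% (8.59 to 29.4%) without. These intervals cover counting error only, and the shares rest on the same Socs3 counts as the test above. Of the other SOCS genes, Socs4, Socs6 and Socs7 could be tested, and their averaged log2 fold changes were -0.08 (SE 0.32), 0.02 (SE 0.28) and 0.15 (SE 0.25). None of these 3 passed by edgeR or DESeq2, and 0 had an unadjusted p under 0.05 by either.

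**Figure D3:**
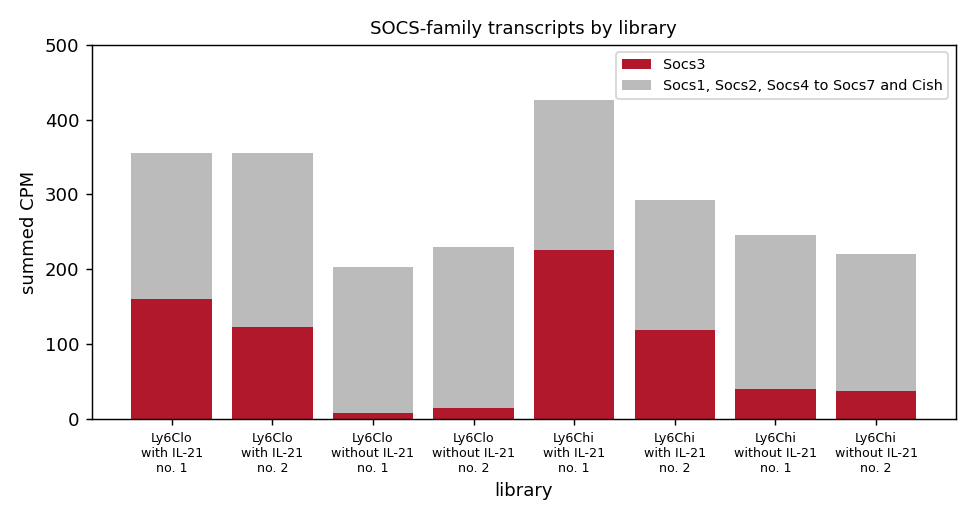
Summed CPM (y axis) of SOCS-family transcripts in each of the 8 libraries (x axis), with Socs3 in red and the other 7 genes stacked on it in grey. The grey part stays between 174 and 232 CPM in all libraries, and the red part is taller in the 4 libraries with IL-21.

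Socs1, which blocks JAKs directly and is best known as an inhibitor of interferon signalling, was too low to be tested in the main comparison. It had 2 and 16 counts in Ly6Clo with IL-21 against 3 and 7 without, and 6 and 4 counts in Ly6Chi with IL-21 against 6 and 8 without. In the Ly6Chi subset the stimulated libraries were both lower than the unstimulated ones in CPM, and in Ly6Clo they overlapped. The share of all genes with such a lower pattern was not counted. Summed over the subsets this was 24.9 CPM (95% Poisson interval 16.6 to 36.0) with IL-21 and 20.0 CPM (12.8 to 29.7) without. The averaged Socs1 log2 fold change without a filter was 0.25 (SE 0.47, interval -0.67 to 1.18; edgeR adjusted p 1.0).

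Socs2, a feedback inhibitor of growth hormone signalling, was seen mainly in 1 library. It had 1 and 9 counts in Ly6Clo with IL-21 against 1 and 23 without, and 3 and 1 counts in Ly6Chi with IL-21 against 1 and 1 without. A single unstimulated Ly6Clo library, number 2, thus held 23 of the 40 Socs2 counts. Dendritic cell markers were highest in the same library. Summed over the 7 listed genes they were at 7.99 and 24.6 CPM in Ly6Clo with IL-21, against 29.1 and 87.8 CPM without, and at 0 and 4.96 CPM in Ly6Chi with IL-21, against 20.5 and 41.9 CPM without. The second unstimulated Ly6Clo library was also the deepest, and 29 of its 40 counts of the list were Ccr7, the receptor of migrating dendritic cells. Ccr7 was at 63.6 CPM there, had at most 6 counts elsewhere and reached at most 14.8 CPM with IL-21. Xcr1 summed to 14 counts without IL-21 and 2 with it, Flt3 to 5 and 0, and Zbtb46 to 3 and 4. Clec9a, Cd209a and Siglech were at 0 in all libraries. The list summed to 13 counts with IL-21 and 63 without, and its part in the values of Socs2 or of any other gene was not tested. Without a filter, the Socs2 log2 fold change for IL-21 was -1.07 (SE 0.66) in Ly6Clo and 1.02 (SE 1.24) in Ly6Chi, each with an edgeR adjusted p of 1.0. For Ly6Clo against Ly6Chi without IL-21 it was 2.89 (SE 0.92, edgeR adjusted p 0.574), which rests on that library. Without a filter 0.0901% of genes passed in that comparison.

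Cish, an inhibitor of STAT5-activating receptors and a classical STAT5 target, had 3 counts in the second Ly6Clo library with IL-21 and 0 in the other 7. Summed over the 4 libraries with IL-21 that is 2.67 CPM (Poisson interval 0.551 to 7.81), and over the 4 without it 3 counts would be 2.49 CPM. No change in Cish could be detected at this depth and time.

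Myc, a transcription factor of growth, had 0 counts in all 4 libraries with IL-21 and 7 in those without, 2 and 3 in Ly6Clo and 2 and 0 in Ly6Chi. A count of 0 over the 4 stimulated libraries allows up to 2.67 CPM (3 counts), which lies within the Poisson interval of the unstimulated level (5.82 CPM, 2.34 to 12.0). The difference did not pass in the unfiltered fit (unadjusted p 0.0336 and adjusted p 1.0 by edgeR), and 7 counts are few.

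Batf, an AP-1 factor of T and B cells that is a direct IL-21 target in lymphocytes, had 2 and 10 counts in Ly6Clo with IL-21 against 2 and 6 without, and 6 and 6 counts in Ly6Chi with IL-21 against 3 and 6 without. Levels overlapped in both subsets, and pooled they were 21.4 CPM (Poisson interval 13.7 to 31.8) with IL-21 and 14.1 CPM (8.23 to 22.6) without. Pias3, the protein inhibitor of activated STAT3, had 4 and 7 counts in Ly6Clo with IL-21 against 1 and 3 without, and 2 and 5 counts in Ly6Chi with IL-21 against 4 and 1 without. Pias3 levels overlapped in Ly6Chi, while in Ly6Clo both stimulated libraries lay above both unstimulated ones. Such a separation was seen for 15% of the genes tested, which passed the filter that Pias3 did not. The share among genes with so few counts was not counted. In the unfiltered fit the averaged log2 fold change was 0.58 (SE 0.53) for Batf and 1.04 (SE 0.68) for Pias3, and both had an edgeR adjusted p of 1.0. In that fit, where 0.197% of 17757 genes passed, Socs3 was again the 1 member that did.

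**Figure D4:**
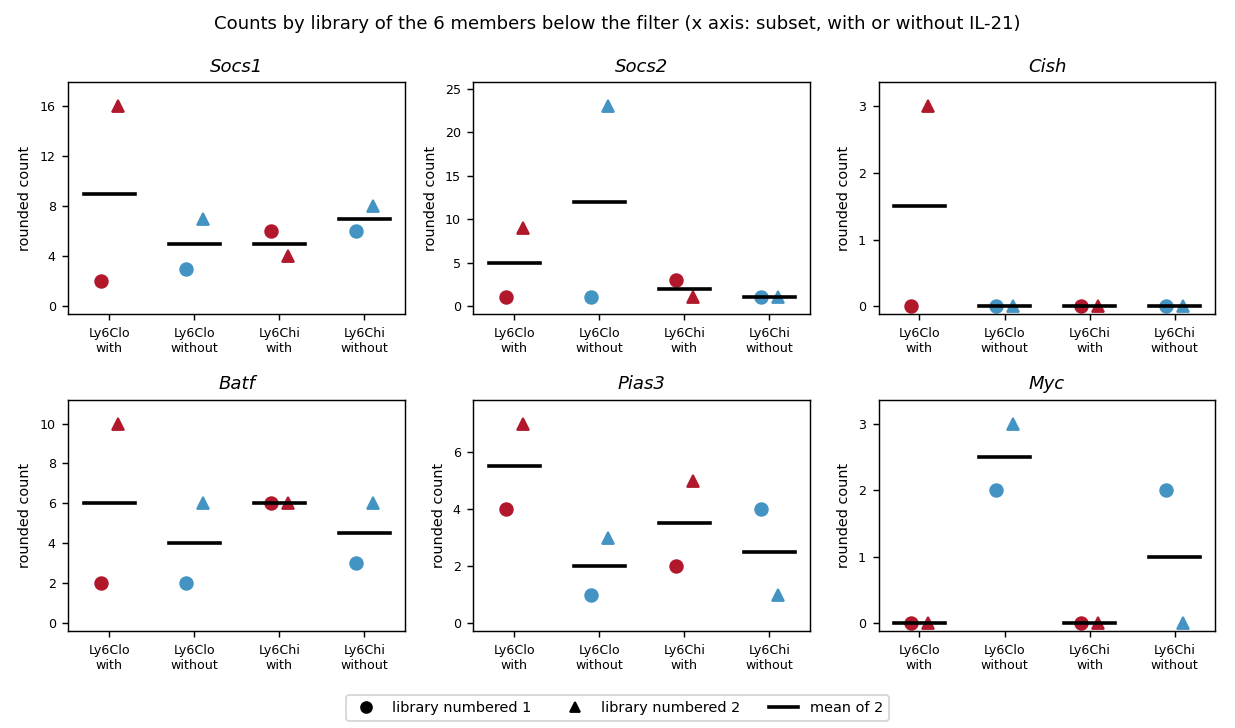
Rounded counts (y axis) of Socs1, Socs2, Cish, Batf, Pias3 and Myc in each library of the 4 groups (x axis, with IL-21 in red and without in blue), with circles and triangles for libraries numbered 1 and 2 and a bar for their mean. The highest values are 23 counts of Socs2 and 16 of Socs1, each in a single library numbered 2 of Ly6Clo, and Myc is at 0 in the 4 libraries with IL-21.

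Between the subsets, each of the 4 tested genes had a lower fitted level in Ly6Clo than in Ly6Chi, with and without IL-21, and none passed. Without IL-21 the log2 differences beside that of Socs3 were -0.82 (SE 0.41) for Bcl3, -0.66 (SE 0.30) for Pim1 and -0.39 (SE 0.25) for Junb. With IL-21 they were -0.71 (SE 0.36) for Bcl3, -0.36 (SE 0.29) for Pim1 and -0.30 (SE 0.24) for Junb. Without IL-21 edgeR called 0 members, with 2 at an unadjusted p under 0.05, against 0.0381% of all genes passing and 4.53% at such an unadjusted p. DESeq2 called 0 members, with 1 at such a p, against 2 of the 5256 genes passing and 69 at such a p. Under the replicate block 0.59% of genes passed, and 0 members. With IL-21 both tools called 0 members, with 0 at an unadjusted p under 0.05, against 0.019% of all genes passing and 5.27% at such an unadjusted p by edgeR. By DESeq2 1 of the 5256 genes passed there and 75 had such a p. The Socs3 difference with IL-21 turned to 0.23 without the first Ly6Chi library with IL-21.

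Upstream of these genes, 9 genes of the receptor, the JAKs and the STATs were tested. Of them 0 passed for the averaged effect by edgeR (2 at an unadjusted p under 0.05) and 0 by DESeq2 (1), and their median log2 fold change was 0.02, against -0.01 over all genes tested. Over all genes 0.171% passed and 5.33% had an unadjusted p under 0.05 by edgeR. By DESeq2 8 of the 5256 genes passed and 82 had such a p. These values are also the background of the related lists that follow. Il21r, the specific IL-21 receptor chain, had a log2 fold change of 0.91 (SE 0.21; edgeR adjusted p 0.176, and 0.00713 with the replicate block), Stat3 of 0.57 (SE 0.19) and Stat5b of 0.70 (SE 0.42). Stat3 was at 260 and 232 CPM in Ly6Clo with IL-21, against 158 and 156 CPM without, and at 196 and 204 CPM in Ly6Chi with IL-21, against 107 and 175 CPM without. No stimulated Stat3 value overlapped an unstimulated one, as for 2.19% of genes tested.

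Other negative regulators had a median of 0.11 over 10 tested genes, 0 of which passed by edgeR or DESeq2, with 1 at an unadjusted p under 0.05 by each tool. That gene by edgeR was Ptpn1, the phosphatase PTP1B that acts on JAK2 and TYK2, at 0.67 (SE 0.18; edgeR adjusted p 0.317, and 0.0110 with the replicate block). Its level was 364 and 347 CPM in Ly6Clo with IL-21, against 253 and 257 CPM without, and 550 and 328 CPM in Ly6Chi with IL-21, against 254 and 229 CPM without. Every Ptpn1 library with IL-21 lay above every one without, again as for 2.19% of genes. Sh2b3 (0.45, SE 0.31), an adaptor that restrains JAK2, and Ptprc (0.23, SE 0.16), the phosphatase CD45, came next by p and did not pass.

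Among 19 tested other STAT3-linked early targets, 1 rose and 0 fell by edgeR, with 5 at an unadjusted p under 0.05, and the median was 0.14. By DESeq2 1 passed, and only 2 had such an unadjusted p. The gene that rose by edgeR was Il4ra, a chain of the IL-4 and IL-13 receptors (2.03, SE 0.29, edgeR adjusted p 0.0186). It was at 372 and 606 CPM in Ly6Clo with IL-21, against 74.7 and 136 CPM without, and at 384 and 521 CPM in Ly6Chi with IL-21, against 69.7 and 172 CPM without. Within a subset edgeR called Il4ra only with the replicate block. The block values were 2.20 in Ly6Clo (SE 0.21, edgeR adjusted p 2.11e-07), where 0.552% of genes passed, and 1.94 in Ly6Chi (SE 0.23, edgeR adjusted p 1.27e-05), where 0.266% did. Ier3 (0.71, SE 0.26), a stress-response gene, and Cebpb (0.47, SE 0.19), a myeloid transcription factor, did not pass.

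For the MYC network 0 of 8 tested genes passed by edgeR (2 at an unadjusted p under 0.05) or DESeq2 (0), and the median was -0.05. The MAX partner Mxd1, an antagonist of MYC, had the smallest p there (0.70, SE 0.28), with Ldha, a glycolytic enzyme (0.41, SE 0.18), and the nucleolar Npm1 (-0.27, SE 0.19) after it. Among 6 tested NF-kappaB genes, with which BCL3 acts, 0 passed by edgeR (1 at an unadjusted p under 0.05) or DESeq2 (0), and the median was 0.30. Nfkbia, the inhibitor IkappaB-alpha (0.43, SE 0.18), Rel (-0.62, SE 0.31) and Nfkbiz, another atypical IkappaB (0.80, SE 0.47), had the smallest p values.

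**Figure D5:**
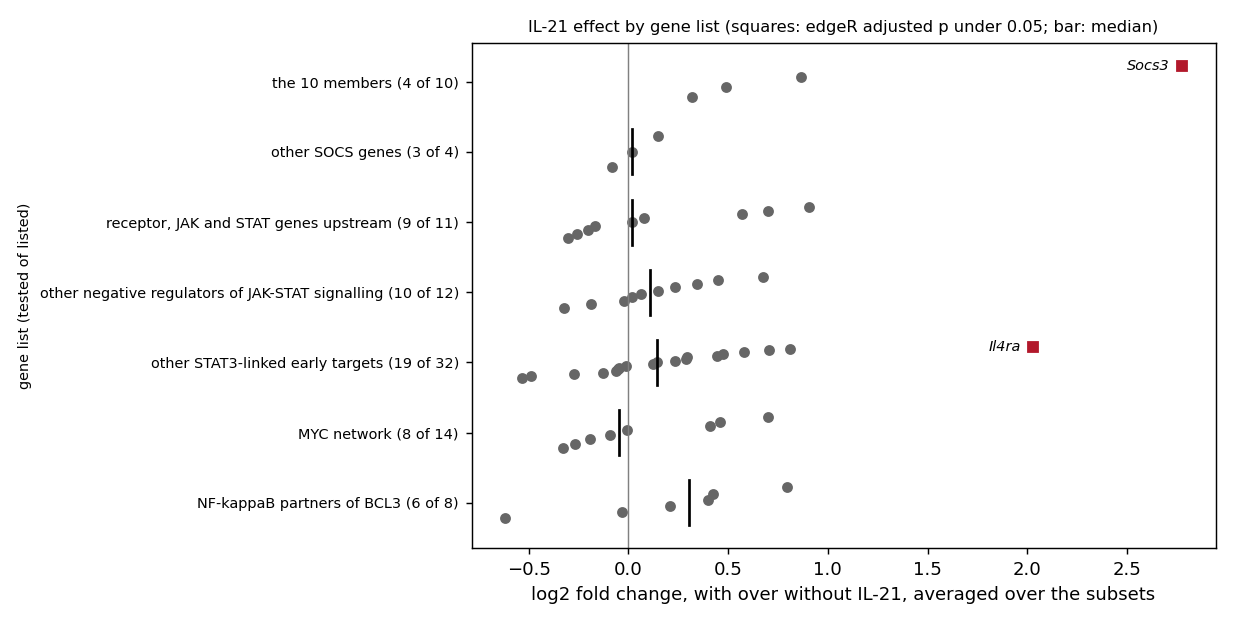
Log2 fold change with over without IL-21, averaged over the subsets (x axis), of each tested gene of the 10 described here and of 6 related gene lists (y axis), with the number tested of those listed in brackets and a bar at each related list's median. Red squares mark edgeR adjusted p values under 0.05, reached by Socs3 at 2.77 and Il4ra at 2.03, and Il21r at 0.91 is the next highest.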

How the data were processed

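Per the labels' protocols, RNA was tagged at its 3′ end with a QuantSeq FWD kit and a module for molecular identifiers, and read as 75-base single ends. The authors deposited expected counts, 1 estimated count per Ensembl gene and library, and 53.3 to 59.7% of values above 0 are not whole at a tolerance of 0.001. The build mm10 and DESeq2 are named without versions, per the submitters' processing notes; aligner, counter, annotation, and whether identifiers and strand were used is not given in the sources used here. If identifiers were not used, counts include amplified copies.

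Values were rounded, matched to GENCODE M21 (GRCm38; 53237 of 53342 identifiers), filtered with filterByExpr (minimum count 10, minimum total 15; 5256 genes), scaled by TMM and fitted with edgeR 4.0.16 (R 4.3.3) in 1 model of 4 group means with robust quasi-likelihood F tests (4 residual degrees of freedom). Adjusted p values are Benjamini-Hochberg over all genes tested, called under 0.05. SE is the log2 fold change over the root of F, and 95% intervals follow from it. CPM use TMM-scaled totals of the genes tested. Differences between same-numbered libraries use a prior count of 2. Poisson intervals and limits cover counting error only.

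DESeq2 1.42.0, no filter (17757 genes), unrounded values, the replicate number as a block, each library left out and unscaled CPM totals were alternatives. On simulated counts for the IL-21 effect in Ly6Clo (5256 genes, 5 simulations), calls were made for 77.2% of the 4-fold changes, for 19.4% of the 2-fold changes and for 0.17% of the genes left alone. All 10 genes are named, and from each related list those called plus the 3 with the smallest p for the averaged effect. The labels do not say what a replicate number shares. The differences between numbers 1 and 2 correlated over 5256 genes in all 6 pairs of groups (Pearson r 0.234 to 0.412). Values with the number as a block are therefore given where they change a call on a member or a gene of the related lists. Calls that it changed on marker genes between the subsets are not listed. The main fit has no such block, so this shared difference stays in its spread. For the averaged effect edgeR called 60 genes with the block and 9 without it. The genes and lists were chosen with earlier results of these data known.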

Additional observations from a re-analysis of the deposited data

How the results depend on the processing

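Of 400 values recomputed under the alternatives, 381 kept their direction and their side of the threshold or moved less than the replicate spread. Of these 381, 281 lay outside the counts of members called and the Socs3 effects of IL-21, and no test among them had passed. Among those counts and effects 100 stayed the same, 4 moved, 1 grew weaker and 3 grew stronger. The fits share most or all libraries, so these numbers do not measure robustness. The averaged Socs3 log2 fold change was positive in all 12 alternative fits and passed in those that kept all 8 libraries. In Ly6Chi the count of members called, 0 in the main analysis, was 1 with no filter on low counts (Socs3 2.12) and 1 under the replicate block (Socs3 2.11, SE 0.35, edgeR adjusted p 0.00225). With 1 library left out, the Socs3 value in Ly6Chi ran from 1.59 to 2.50. In Ly6Clo it ran from 3.16 to 4.01 over such fits, and did not pass without the second unstimulated Ly6Clo library. A fit that leaves out a library assumes that the lone sample of its group varies like the others. With the replicate block no other call on a member changed, and over all genes it called 60 for the averaged effect (9 in the main analysis), 14 in Ly6Chi (1), 29 in Ly6Clo (7), 1 for the difference (0) and, for Ly6Clo against Ly6Chi, 31 without (2) and 41 with IL-21 (1). With no filter these were 35, 8, 16, 1, 16 and 22. With unrounded values 3 genes passed in Ly6Clo.

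Signs turned only for values that had not passed, with 1 library left out. The difference of the IL-21 effects was -0.46, -0.14 and -0.27 for Bcl3 without the first unstimulated Ly6Chi, the second stimulated Ly6Clo and the second unstimulated Ly6Clo library. The Bcl3 range over the 8 such fits was -0.46 to 0.53. For Junb it was -0.11, -0.03 and -0.06 without the first unstimulated Ly6Chi, the second stimulated Ly6Chi and the second stimulated Ly6Clo library (range -0.11 to 0.27), and for Pim1 -0.034 without the first unstimulated Ly6Chi library (range -0.034 to 0.71). The Pim1 effect in Ly6Chi was -0.01 and -0.092 without the second stimulated and the second unstimulated Ly6Chi library (range -0.092 to 0.51). Socs3 in Ly6Clo against Ly6Chi with IL-21 was 0.23 without the first stimulated Ly6Chi library (range -0.70 to 0.23). The cause was not tested. Depth limits the 6 untested genes, whose counts were at most 23 per library.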

Other observations

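Without IL-21 all 6 tested NF-kappaB genes had a lower fitted level in Ly6Clo than in Ly6Chi, at a median log2 difference of -0.30 against 0.00 over all genes tested, of which 50% were higher. Of the 6, 0 passed by edgeR (1 at an unadjusted p under 0.05) or by DESeq2 (1). By edgeR 0.0381% of all genes passed and 4.53% had such an unadjusted p, and by DESeq2 2 of the 5256 genes passed and 69 had such a p. For Nfkbia the level without IL-21 was 515 and 737 CPM in Ly6Clo, against 1447 and 999 CPM in Ly6Chi, and with the replicate block this difference passed (-0.92, SE 0.19, edgeR adjusted p 0.0223), as did that of Cebpb (-0.96, SE 0.20, edgeR adjusted p 0.0174). In the MYC network 7 of 8 tested genes were higher in Ly6Clo without IL-21 (median 0.28), and 3 of 8 were higher with it (median -0.06, 49.4% of all genes higher). In either state 0 passed by edgeR (1 at an unadjusted p under 0.05 without IL-21 and 0 with it) or by DESeq2 (0 and 0). With IL-21, 0.019% of all genes passed and 5.27% had such a p by edgeR. By DESeq2 1 of the 5256 genes passed with IL-21 and 75 had such a p.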
